A study of Pimephales promelas with 12 samples.

Results

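The contigs described here are 107 sequences with more reads in the telencephalon than in the hypothalamus of the fathead minnow in every pair of libraries, of 46309 contigs with a read in any library. A contig is an assembled or single sequence that stands in for a transcript. To be a member, a contig needed at least 30 raw counts in every telencephalon library, and in each of the 3 pairs of telencephalon and hypothalamus libraries with the same replicate number its level in telencephalon had to be at least 3 times that in hypothalamus. Levels are CPM (counts scaled to a common library total) after TMM scaling, which adjusts each library's total so that most contigs keep the same level. Of the contigs, 22953 had at least 30 counts in every telencephalon library, and the 107 members are 0.466% of these well-counted contigs. The mirrored rule, with hypothalamus above telencephalon, was met by 164 contigs. The difference between telencephalon and hypothalamus chose the members, so it is given below as a description, and counts of calls in that contrast support nothing.

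The data are 12 libraries of RNA from adult males of the fathead minnow, a small fish used to test chemicals for toxicity. The animals came from an in-house culture, had received no treatment that the labels name, and were killed in buffered anaesthetic. There were 4 tissues with 3 libraries each, telencephalon, hypothalamus, gut and liver, numbered 1 to 3 within each tissue. The methods describe individual males as the replicates, and each number was read as a fish because same-numbered libraries deviated together. The labels do not name the fish, so below a fish means a replicate number.

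The telencephalon is the front part of the forebrain. In fish it receives input from the olfactory bulb and takes part in learning, memory and social behaviour. The hypothalamus lies below it and behind it, and governs hormone release from the pituitary, feeding and reproduction. Both are made of neurons and glia, so most transcripts are shared between them, while gut and liver consist mostly of other cell types. The files name the contigs by assembly and not by gene, so the roles of the members, and the markers by which the tissue labels could have been checked, were not used here. The level of a contig is its share of reads and is not divided by its length, so an order of levels among contigs is an order of read shares. In samples of whole tissue, fewer cells of a type and less RNA per cell cannot be told apart.

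The libraries held 17729942 to 21463583 counts in telencephalon, 18845704 to 22589095 in hypothalamus, 19301093 to 20801155 in gut and 14546298 to 16721570 in liver. After scaling, 3 counts in a library were worth 0.109 to 0.131 CPM in telencephalon, 0.102 to 0.121 in hypothalamus, 0.157 to 0.167 in gut and 0.291 to 0.302 in liver, so a contig listed at 0 lies below about that level. Hypothalamus replicate 2 stood apart from the other brain libraries. Of the well-counted contigs, 13.6% had at least 3 times the level in telencephalon in pair 2, against 1.05% in pair 1 and 1.08% in pair 3. With pair 2 left out of the rule 146 contigs qualified, and all 107 members were among them.

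Most of the members had their highest mean in telencephalon, and 68 of the 107 had gut and liver means under 1/10 of it. This limit is a share of the telencephalon mean, so it does not mean absence from gut and liver. The median of the members' mean levels was 16.7 CPM in telencephalon, 1.65 CPM in hypothalamus, 0.482 CPM in gut and 0.499 CPM in liver. The same medians over all well-counted contigs were 10.2, 10.2, 6.94 and 6.05 CPM. The rule set a high ratio of telencephalon to hypothalamus, so the members' medians in these 2 tissues describe the choice. In gut and liver, which the rule did not use, the members' medians were far lower than those of the well-counted contigs. In telencephalon the members' means ran from 1.27 to 712 CPM, with 14 members at 100 CPM or more and 46 under 10 CPM. A few contigs held most of the reads, since the 12 highest took 64.7% of the members' summed level there.

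**Figure D1:**
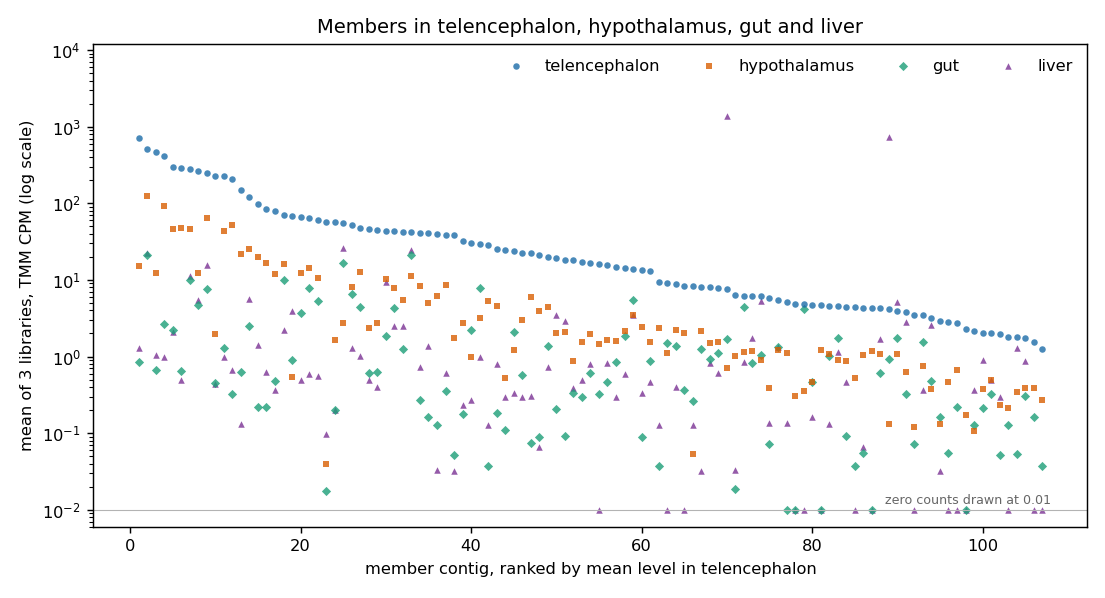
Each member's mean level over 3 libraries (TMM CPM, log axis) in telencephalon (circles), hypothalamus (squares), gut (diamonds) and liver (triangles), with the 107 members ranked by their telencephalon mean, and means of 0 drawn at 0.01. Telencephalon runs from 712 to 1.27 CPM and lies above the other tissues for 104 members, while 3 members are highest in liver.

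Summed over the members, the level was 6431 ± 940 CPM in telencephalon (SD, n = 3), 898 ± 118 in hypothalamus, 201 ± 29.3 in gut and 2327 ± 513 in liver. These sums were 0.735 to 0.904% of the raw counts of the telencephalon libraries, and 0.107 to 0.123% of those of the hypothalamus libraries. The high liver sum came from 2 contigs of a single assembly cluster, FHM_All_PTA_Assem.3337.C2 and FHM_All_PTA_Assem.3337.C3, which held 91.4% of it. Without them the members summed to 199 ± 18.1 CPM in liver, close to gut, and to 6419 ± 943 in telencephalon.

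The member with the highest level in telencephalon was c2017/f9p1/760, an isoform read by PacBio long-read sequencing. It had 665, 699 and 771 CPM in telencephalon replicates 1, 2 and 3, and 6.44, 20 and 18.4 CPM in hypothalamus. In gut it had 0.556, 0.734 and 1.27 CPM, and in liver 1.5, 0.971 and 1.41 CPM. The telencephalon libraries lay within a narrow band far above all others, and gut and liver overlapped. Its telencephalon mean was 833 times that of gut and 551 times that of liver, and both differences passed the test (edgeR's quasi-likelihood test, Benjamini-Hochberg adjustment, adjusted p = 3.58e-06 and 3.26e-06). It was picked for its telencephalon level and the rule asked for counts there, so the choice favours this direction.

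The member next in level was FHM_All_PTA_Assem.1961.C1, with 474, 484 and 577 CPM in telencephalon and 116, 151 and 102 CPM in hypothalamus. In gut it had 23.5, 22.6 and 17.6 CPM, and in liver 27.2, 22.9 and 17.9 CPM. Here too no telencephalon library overlapped another tissue, but gut and liver kept 4.15% and 4.44% of the telencephalon mean. A sister contig of the same assembly cluster, FHM_All_PTA_Assem.1961.C2, was also a member, at 282, 290 and 276 CPM in telencephalon, 53.4, 26.1 and 60.7 in hypothalamus, 12.1, 8.76 and 8.80 in gut and 12.6, 14 and 7.45 in liver. Both contigs showed the same order of telencephalon, hypothalamus and then gut and liver.

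The ratio of telencephalon to hypothalamus, which the rule required to be at least 3, had a median over the members of 5.79 in pair 1, 7.27 in pair 2 and 6.33 in pair 3. Over all well-counted contigs these medians were 1.02, 1.02 and 0.993. Most members were not far above the limit. The median of their lowest ratio over the 3 pairs was 4.50, and 46 members had a lowest ratio under 4. With a hypothalamus count below 3 in a library set to 3, 48 members had a lowest ratio of at least 5, 19 of at least 10 and 7 of at least 20. The lowest ratio fell in pair 1 for 39 members, in pair 2 for 35 and in pair 3 for 33, so no single pair set the limit for most of them.

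**Figure D2:**
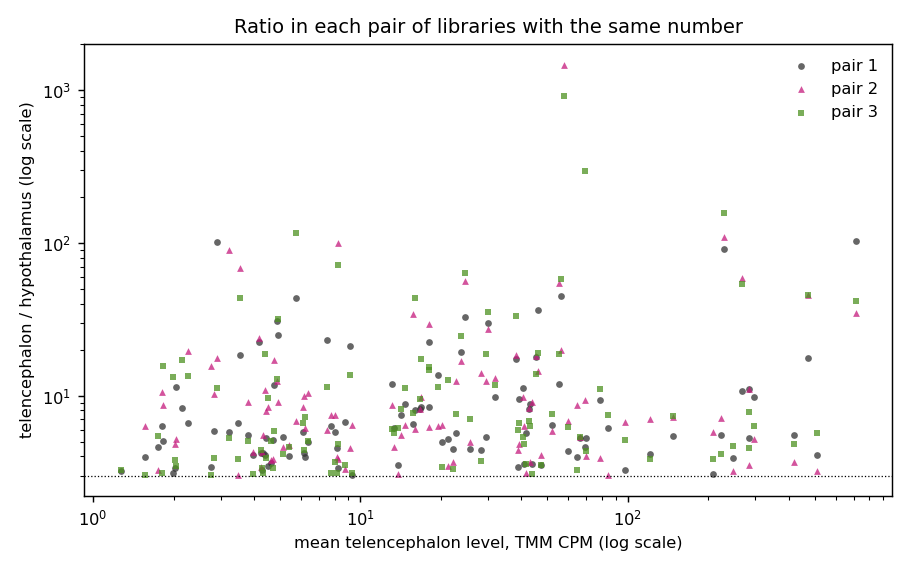
The ratio of telencephalon to hypothalamus (log axis) in pairs 1, 2 and 3 (circles, triangles and squares) for each member, against its mean telencephalon level (TMM CPM, log axis), with the rule's limit of 3 dotted. The ratios of 2 members in pair 1, 3 in pair 2 and 1 in pair 3 had a hypothalamus count of 0 and are not drawn, and high ratios occur at low and at high levels.

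All 107 members had every telencephalon library above every hypothalamus library, across pairs as well as within them, against 8.62% of the well-counted contigs. The rule asked for at least 3 times within each pair of these libraries, which favours such a separation. For 73 members every telencephalon library was at least 3 times every hypothalamus library. This is stricter than the rule, so no well-counted contig outside the members could meet it. With the contrast that chose them, 54 members had an adjusted p under 0.05 as higher in telencephalon (edgeR's quasi-likelihood test, Benjamini-Hochberg adjustment), a call made for 0.226% of all contigs tested. With replicate number added as a block (a paired fit) the count was 86, where 0.875% of all contigs were called in either direction. DESeq2 gave 103, and leaving out a library gave 22, 5 and 1 without telencephalon replicates 1, 2 and 3, and 22, 52 and 19 without hypothalamus replicates 1, 2 and 3. Shares of all contigs called were not taken for DESeq2 or with a library left out, so those counts have no background beside them. All counts of calls in this contrast describe the choice of members, and nothing is read from them.

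The largest lowest-pair ratio belonged to FHM_All_PTA_Assem.13637.C1. It had 558, 3158 and 846 raw counts in telencephalon, and 0, 2 and 1 counts in hypothalamus, 0, 1 and 0 in gut and 0, 2 and 1 in liver. In pair 1 its level in telencephalon was at least 200 times that in hypothalamus, with the floor of 3 counts in that hypothalamus library. Its reads were thus almost confined to the telencephalon in these 12 libraries, though floors and ratios cover counting error only. Next came FHM_All_PTA_Assem.4067.C1, at 205, 240 and 241 CPM in telencephalon and 2.25, 2.19 and 1.53 CPM in hypothalamus, which gave ratios of 91.3, 109 and 158. Gut had 0.445, 0.472 and 0.443 CPM of it, and liver 0.599, 0 and 0.705 CPM. It joined an even level over the telencephalon libraries with a mean 505 times that of gut and 526 times that of liver.

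At the other end, the members nearest to the limit were Singlet_14102_R, with ratios of 3.4, 15.6 and 3.02, and FHM_All_PTA_Assem.19119.C1, with 6.67, 3.02 and 3.85. The contigs nearest below it were Singlet_11224_R, with ratios of 4.15, 4.11 and just under 3.00, and Singlet_14594_R, with 4.38, 7.61 and 2.99. The pair that decided membership thus differed little between them. Singlet_11224_R differed from most members outside the brain, since it had 7.89, 5.87 and 3.87 CPM in gut and 7.78, 9.12 and 6.55 CPM in liver against 4.95, 1.93 and 2.41 CPM in telencephalon.

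To see the ratio in fish that had not entered the choice, the rule was applied to each set of 2 pairs and the ratio was read in the pair left out. With pair 1 left out 155 contigs were chosen, and 110 of them (71.0%) had a ratio of at least 3 in pair 1, against 1.24% of all contigs with 30 counts in the telencephalon libraries used. With pair 2 left out 146 contigs were chosen, and 111 (76.0%) reached 3 in pair 2, against 13.5%. With pair 3 left out 182 contigs were chosen, and 108 (59.3%) reached 3 in pair 3, against 1.13%. Most contigs chosen on 2 pairs were also at least 3 times higher in telencephalon in the remaining pair. By the rule all 107 members were in each of these sets and reached 3 in the pair left out. The members were thus 107 of the 110, 111 and 108 contigs that reached 3. These shares therefore give little beyond the number of members in each set. A ratio above 1 was found for 153, 143 and 168 of the chosen contigs (98.7%, 97.9% and 92.3%). The 107 members are among these by the rule, so the direction was open only for the others. Of all contigs with 30 counts in the telencephalon libraries used, 52.7%, 50.7% and 47.9% were above 1. The median ratios in the pair left out were 4.48, 5.68 and 3.54, and the members enter these medians too.

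**Figure D3:**
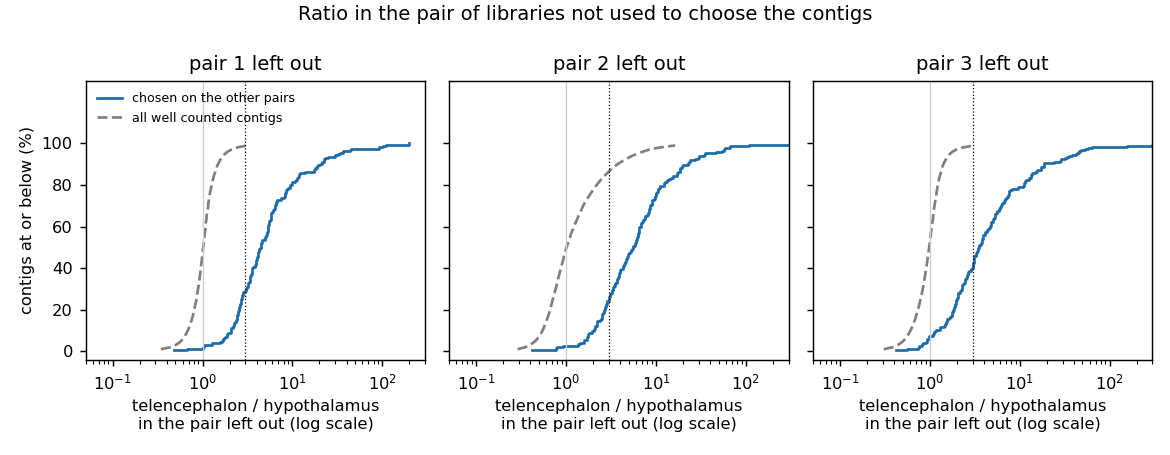
The percent of contigs at or below a given ratio of telencephalon to hypothalamus (log axis) in the pair left out, for contigs chosen on the other pairs (solid) and for percentiles 1 to 99 of all contigs well counted in the telencephalon libraries used (dashed), with ratios of 1 (grey) and 3 (dotted) marked. The chosen contigs have medians of 4.48, 5.68 and 3.54, and each set holds all members, which reach 3 by the rule. The dashed curve is broader with pair 2 left out, where 13.5% of contigs reach 3.

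In gut and liver, which the rule did not use, 68 members (63.6%) were low in both, with means under 1/10 of the telencephalon mean. Only 11.9% of the well-counted contigs were low in both. A further 12 members were low in liver and between 1/10 and 1/3 of telencephalon in gut (3.20% of well-counted contigs), and 6 were low in gut and between these limits in liver (2.03%). Another 4 lay between the limits in both (5.91%). A level of at least 1/3 of telencephalon was kept in liver only by 10 members (4.91%), in gut only by 5 (8.26%) and in both by 2, FHM_All_PTA_Assem.1102.C6 and FHM_All_PTA_Assem.10392.C2, while 63.8% of the well-counted contigs kept that level in both. The rule required counts in telencephalon and a level there of at least 3 times that in hypothalamus. The shares in gut and liver are taken of the same telencephalon mean. How far the rule alone lowers them was not tested.

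**Figure D4:**
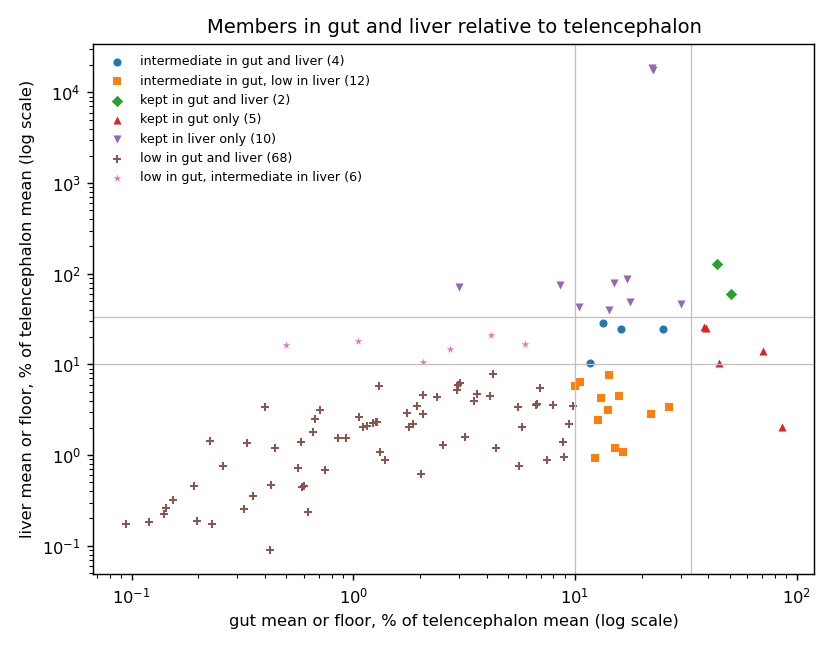
Mean level in gut (x axis) and in liver (y axis) as a percent of the telencephalon mean (log axes) for the 107 members, with means below a floor of 3 counts over the group set to that floor, grey lines at 10% and 33.3%, and symbols for the patterns. The largest group, 68 members, lies low in both, and the pair of contigs far above the rest are FHM_All_PTA_Assem.3337.C2 and FHM_All_PTA_Assem.3337.C3, at more than 100% of telencephalon in liver.

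Of the members, 104 had their highest mean in telencephalon and 3 in liver, while 32.2% and 22.1% of the well-counted contigs were highest there. The rule keeps telencephalon above hypothalamus for every member, whereas 23% of the well-counted contigs were highest in hypothalamus. The shares highest in telencephalon thus differ in part because of the rule. The lowest mean was in gut for 47 (43.9%), in liver for 47 (43.9%) and in hypothalamus for 13 (12.1%). Of the well-counted contigs, 29% were lowest in gut, 41.2% in liver and 11.7% in hypothalamus. Hypothalamus lay above both gut and liver for 75 members, so the usual order among them was telencephalon, hypothalamus and then the other tissues. The share of well-counted contigs with hypothalamus above both was not counted. Their medians were also higher in hypothalamus (10.2 CPM) than in gut (6.94 CPM) or liver (6.05 CPM), but medians give no order within a contig. Only contigs highest in telencephalon (32.2% of the well-counted ones) or in hypothalamus (23%) can have hypothalamus above both. Whether this place of hypothalamus is particular to the members was not tested.

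Some members had no count at all outside the brain. In gut 5 members had 0 in every library, in liver 15, and 4 had 0 in both. The shares of well-counted contigs with such counts of 0 were not taken, so these numbers have no background beside them. As 3 counts were worth 0.291 to 0.302 CPM in liver and 0.157 to 0.167 CPM in gut, a count of 0 covered a wider range of levels in liver. The 4 at 0 in both, named because they are few, were Singlet_10231_R, Singlet_3824_R, c7564/f1p0/1666 and the expressed sequence tag DT235417. Singlet_3824_R had 163, 136 and 87 counts in telencephalon, and 7, 14 and 3 in hypothalamus. Its telencephalon mean was at least 90.3 times that of gut and at least 49.6 times that of liver, with a floor of 3 counts over the group. Singlet_10231_R had 100, 161 and 105 counts in telencephalon and 21, 39 and 34 in hypothalamus, at least 86.6 times gut and at least 47.5 times liver. DT235417 had 76, 128 and 123 counts in telencephalon and 25, 28 and 40 in hypothalamus, and c7564/f1p0/1666 had 37, 105 and 37 against 6, 5 and 3. With the same floor, telencephalon was at least 78.6 times gut and 43.1 times liver for DT235417. For c7564/f1p0/1666 it was at least 41.7 times gut and 22.9 times liver. All 4 had few counts in telencephalon, which limits these bounds, and a gut or liver level below the floor could have been missed.

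Tested against gut, 97 members (90.7%) were higher in telencephalon and 0 were higher in gut, where 22.6% of all contigs tested and 37.0% of the well-counted ones were called higher in telencephalon (edgeR's quasi-likelihood test, Benjamini-Hochberg adjustment, threshold 0.05). Against liver, 91 members (85%) were higher in telencephalon and 2 in liver, beside 22.2% and 16.6% of all contigs (36.8% and 18.9% of the well-counted ones). The rule asked for counts in the same telencephalon libraries, which favours this direction, and both comparisons share those libraries. The median log2 difference of the members, with means below the floor set to it, was 5.05 against gut and 5.13 against liver, and over the well-counted contigs 0.396 and 0.548. Every telencephalon library lay above every gut library for 101 members, against 46.5% of the well-counted contigs, and above every liver library for 98, against 48.6%. DESeq2 also called 0 members higher in gut. At an unadjusted p under 0.05 edgeR likewise had 0 members higher in gut, beside 22.5% of all contigs tested and 24.1% of the well-counted ones.

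Among the members not called in these comparisons were both that kept their level in gut and liver. FHM_All_PTA_Assem.1102.C6 had 33.3, 49.6 and 42.1 CPM in telencephalon, 5.83, 15.9 and 11.9 in hypothalamus, 33.9, 15.0 and 14.3 in gut and 31.1, 21.2 and 22.4 in liver. Gut replicate 1 lay within the range of telencephalon, and the other gut libraries and all liver libraries lay below it. Its mean in telencephalon was 1.97 times gut (adjusted p = 0.0874 by edgeR's quasi-likelihood test, 0.0440 with the replicate block) and 1.67 times liver (adjusted p = 0.0623, same test). FHM_All_PTA_Assem.10392.C2 varied more between fish, with 2.24, 4.70 and 4.90 CPM in telencephalon, 0.545, 1.10 and 1.61 in hypothalamus, 0.167, 3.15 and 1.88 in gut and 0.898, 6.21 and 8.16 in liver. In each of these tissues replicate 1 was the lowest library, and telencephalon overlapped gut and liver. Between gut and liver its adjusted p was 0.334, and 0.0151 as higher in liver in the paired fit with the replicate block (same edgeR test).

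FHM_All_PTA_Assem.14464.C1 was the member whose low tissue was most clearly the hypothalamus. It had 57.6, 68.1 and 39.8 CPM in telencephalon, 4.84, 1.25 and 2.13 in hypothalamus, 21.6, 15.9 and 12.8 in gut and 36.6, 26.1 and 15.1 in liver. No other member had every hypothalamus library below every library of the other 3 tissues, a pattern found in 0.562% of the well-counted contigs. Telencephalon was above gut by 1.64 ± 0.27 on the log2 scale (SE, adjusted p = 0.00237, edgeR's quasi-likelihood test, Benjamini-Hochberg adjustment). Against liver the difference was 0.99 ± 0.35 (adjusted p = 0.0582 in the same test, 0.00687 with the replicate block), and the groups did not overlap.

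The contigs of cluster 3337 were the members with a far higher level outside the brain. FHM_All_PTA_Assem.3337.C3 had 1496, 1657 and 1040 CPM in liver, 9.43, 6.78 and 6.39 in telencephalon, 0.409, 1.13 and 0.562 in hypothalamus and 2.11, 0.315 and 2.60 in gut. FHM_All_PTA_Assem.3337.C2 had 808, 891 and 490 CPM in liver, 5.35, 3.75 and 3.41 in telencephalon, 0.238, 0.156 and 0 in hypothalamus and 0.389, 0.210 and 2.21 in gut. Both had their lowest mean in hypothalamus, and every liver library was far above every other library. Their liver means were 186 and 175 times those of telencephalon (adjusted p = 6.21e-06 and 9.03e-06, edgeR's quasi-likelihood test). Most of their reads thus came from a tissue the rule did not look at. Telencephalon was above gut for FHM_All_PTA_Assem.3337.C3 (adjusted p = 0.0400), and for FHM_All_PTA_Assem.3337.C2 the adjusted p was 0.0795, and 0.0202 with the replicate block (same edgeR test).

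Of the 5 members that kept their level in gut only, the highest in telencephalon were FHM_All_PTA_Assem.1472.C2 and FHM_All_PTA_Assem.1603.C1. FHM_All_PTA_Assem.1472.C2 had 6.20, 18.5 and 16.9 CPM in telencephalon, 1.77, 6.02 and 2.73 in hypothalamus, 1.39, 7.86 and 6.97 in gut and 0.798, 5.24 and 4.53 in liver. Replicate 1 was again the lowest library in all 4 tissues, and telencephalon and gut overlapped. Its adjusted p against gut was 0.169 and against liver 0.0696, and the paired fit with the replicate block gave 0.0034 and 0.00149, both higher in telencephalon (edgeR's quasi-likelihood test). FHM_All_PTA_Assem.1603.C1 had 6.86, 5.32 and 6.39 CPM in telencephalon, 1.74, 0.861 and 0.884 in hypothalamus, 6.78, 2.20 and 4.15 in gut and 1.60, 0.582 and 0.403 in liver. Gut replicate 1 lay within the range of telencephalon, and the adjusted p between them was 0.468 (same test). The 3 other members of this pattern were Singlet_14242_R, c11500/f2p0/3053 and FHM_All_PTA_Assem.19119.C1.

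In the patterns with a middle level, FHM_All_PTA_Assem.14608.C1 had 53.6, 85.5 and 70.3 CPM in telencephalon, 10.2, 21.3 and 16.1 in hypothalamus, 9.67, 9.65 and 10.3 in gut and 1.90, 2.62 and 2.12 in liver. FHM_All_PTA_Assem.9485.C2 had 58.2, 71.4 and 64.0 CPM in telencephalon, 14.7, 8.25 and 19.7 in hypothalamus, 11.3, 6.24 and 6.36 in gut and 0.499, 0.582 and 0.705 in liver. In both contigs gut overlapped hypothalamus, while liver was lowest in every library. FHM_All_PTA_Assem.15126.C1 showed the other order, with 35.3, 47.0 and 49.6 CPM in telencephalon, 9.85, 5.16 and 16.1 in hypothalamus, 2.78, 2.15 and 0.609 in gut and 2.0, 13.3 and 12.5 in liver. Its liver libraries 2 and 3 lay in the range of hypothalamus and its liver library 1 in that of gut. The expressed sequence tag DT223145 had 22.8, 17.3 and 18.3 CPM in telencephalon, 1.67, 2.74 and 1.61 in hypothalamus, 0.611, 0 and 0 in gut and 1.10, 8.93 and 0.504 in liver. Its place among the contigs with a middle liver level rests on liver replicate 2 alone.

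The 4 members between the limits in both gut and liver were low in telencephalon too. The highest of them, FHM_All_PTA_Assem.14718.C2, had 7.30, 9.62 and 7.27 CPM in telencephalon, 1.26, 1.29 and 1.97 in hypothalamus, 0.611, 1.05 and 1.16 in gut and 1.10, 0.679 and 0.705 in liver. Singlet_9122 had 6.35, 5.47 and 6.70 CPM in telencephalon, 1.5, 0.548 and 1.53 in hypothalamus, 0.945, 0.472 and 1.05 in gut and 1.5, 1.84 and 1.91 in liver. Hypothalamus, gut and liver overlapped in both contigs or lay close together, and only telencephalon stood apart.

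Gut and liver could be compared without any library that chose the members. Of the 107 members 21 (19.6%) differed, 14 higher in gut and 7 higher in liver, which is near the background of 19.8% of all contigs tested (10.8% higher in gut and 9.01% higher in liver) and below the 25.4% of the well-counted contigs (edgeR's quasi-likelihood test, Benjamini-Hochberg adjustment). The members' median levels were 0.482 CPM in gut and 0.499 CPM in liver, against 6.94 and 6.05 CPM for the well-counted contigs. Fewer counts make a call harder, so these shares do not compare contigs of like level. The members' median log2 difference of gut minus liver was -0.39, with means below the floor set to it, and that of the well-counted contigs was 0.10. With scaling by library size alone, 20 were called higher in gut and 4 in liver. DESeq2 called 15 and 12 of the 84 members to which it gave an adjusted p. A filter on expression (edgeR's filterByExpr) left 50 members, of which 14 were called higher in gut and 6 in liver. In the main fit the count of 21 fell to 13, 11 and 13 without gut replicates 1, 2 and 3. Shares of all contigs called are given for the main fit alone, so these other counts have no background beside them. Most of the members called higher in gut had low levels, with means there of 0.364 to 9.87 CPM (median 4.28), and 11 of the 14 stayed at or under 1/3 of telencephalon. The 7 higher in liver had means there of 1.29 to 1398 CPM (median 2.86). They were the contigs of cluster 3337 and FHM_All_PTA_Assem.15257.C1, Singlet_11276, Singlet_1146, Singlet_13837 and Singlet_5404, whose liver means were 1.36, 2.58, 2.86, 1.29 and 5.29 CPM.

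The member with the largest change towards gut was Singlet_14242_R, with 98, 91 and 42 counts in gut and 0 in every liver library. It also had 57, 161 and 153 counts in telencephalon and 2, 12 and 13 in hypothalamus. Telencephalon and gut overlapped at 2.09 to 6.70 and 2.32 to 5.45 CPM, and liver had none. Its gut mean was at least 42.2 times that of liver, with a floor of 3 counts over the group (adjusted p = 0.00259, edgeR's quasi-likelihood test), and the adjusted p between telencephalon and gut was 0.859. Among the called members FHM_All_PTA_Assem.20038.C1 came next by its fitted log2 difference, which depends on the prior count for a contig at 0 in liver and is no bound. Its gut libraries had 8, 6 and 6 counts against 0 in every liver library, so gut was at least 3.67 times higher, a bound below the 13.4 times of FHM_All_PTA_Assem.9485.C2. At these few counts the call was narrow (adjusted p = 0.0498, same test), and it was lost with the replicate block (0.122), in DESeq2 (0.0856) and without any 1 of the 6 libraries (0.0866 to 0.125). In the other direction the liver means of FHM_All_PTA_Assem.3337.C3 and FHM_All_PTA_Assem.3337.C2 were 834 and 778 times those of gut, with log2 differences of gut minus liver of -9.75 ± 0.86 and -9.64 ± 1.0 (SE, adjusted p = 0.000294 and 0.000567, edgeR's quasi-likelihood test).

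The members' levels were somewhat less even between the telencephalon libraries than those of other contigs. The median coefficient of variation over the 3 libraries was 18.7% for members and 15.0% for the well-counted contigs, and it was under 20% for 52.3% of members and 65.0% of the well-counted contigs. Telencephalon replicate 1 was the lowest library for 65 members (60.7%), against 42.6% of the well-counted contigs. The steadiest members were FHM_All_PTA_Assem.1961.C2, given above, and Singlet_10807_R, with 43.5, 43.0 and 41.4 CPM in telencephalon, 5.28, 5.20 and 6.03 in hypothalamus, 1.5, 0.996 and 1.33 in gut and 5.29, 0.582 and 1.71 in liver. Liver replicate 1 of Singlet_10807_R reached the hypothalamus level, and the other libraries kept the common order.

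A coefficient of variation over 50% was found for 6 members. The largest, 164%, was that of FHM_All_PTA_Assem.1709.C8, which had 1.72, 5.50 and 201 CPM in telencephalon, 0.375, 0.587 and 0.683 in hypothalamus, 1.78, 0.839 and 0.111 in gut and 1.5, 4.56 and 5.84 in liver. Telencephalon replicate 3 was 36.5 times the next telencephalon library, while replicates 1 and 2 lay within the range of liver. Its high mean thus came from 1 library, and the adjusted p was 0.0409 against gut (0.139 with the replicate block) and 0.102 against liver (edgeR's quasi-likelihood test). The 7 other tested contigs of its cluster, looked up after these values were seen, had 55, 25 and 1280 summed counts in telencephalon replicates 1, 2 and 3 and at most 76 in any library of another tissue. Of these 7, 5 were highest in telencephalon replicate 3 of all 12 libraries.

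FHM_All_PTA_Assem.13637.C1, with 20.5, 115 and 37.0 CPM in telencephalon, had the next largest variation (87.8%). Another contig, FHM_All_PTA_Assem.24915.C1, varied in the same way (83.7%) and is named after its values were seen. It had 159, 919 and 343 CPM in telencephalon, 8.99, 20 and 7.55 in hypothalamus, 0.445, 0.891 and 0.664 in gut and 0.399, 1.94 and 0.806 in liver. Replicate 2 was the highest library for both, 5.62 and 5.77 times replicate 1, and the ratio of their CPM was 7.78, 7.98 and 9.26 in the telencephalon libraries. In hypothalamus this ratio was not kept, since FHM_All_PTA_Assem.24915.C1 had 264, 512 and 188 counts there and FHM_All_PTA_Assem.13637.C1 only 3 in all.

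**Figure D5:**
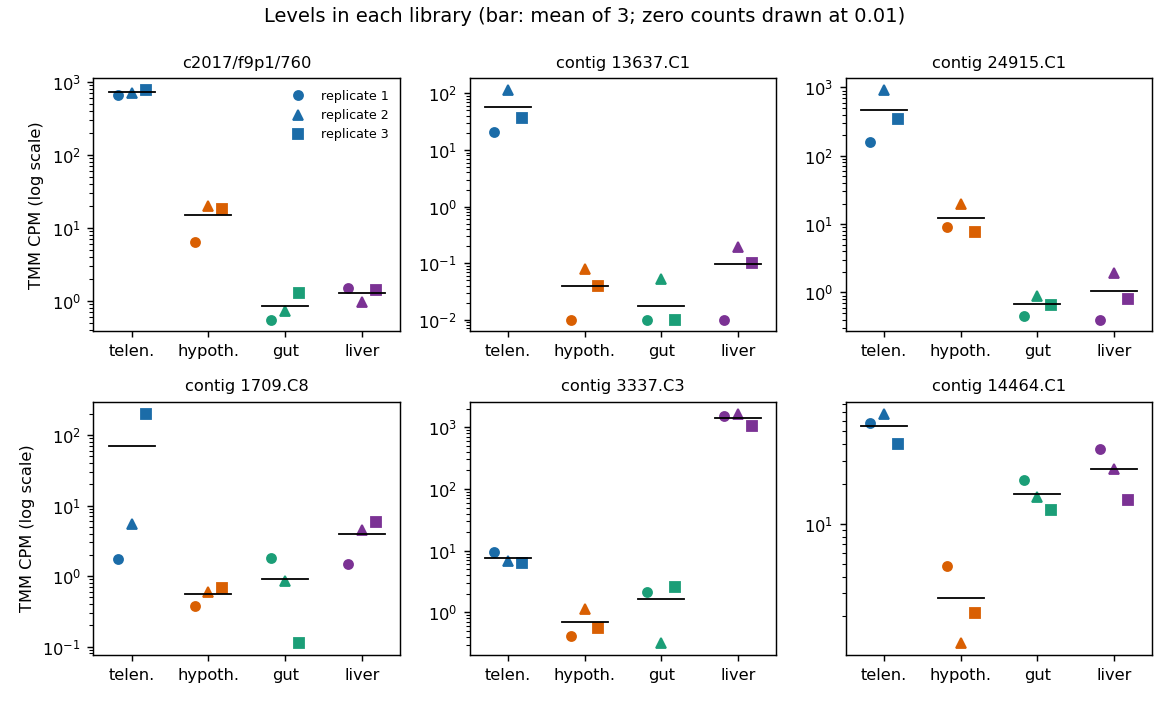
Levels (TMM CPM, log axes) of 6 members in each of the 12 libraries, with circles, triangles and squares for replicates 1, 2 and 3, a bar at the mean of 3 and counts of 0 drawn at 0.01. The upper contigs are near the bottom of the scale in gut and liver, FHM_All_PTA_Assem.1709.C8 is high in telencephalon replicate 3 alone at 201 CPM, FHM_All_PTA_Assem.3337.C3 is highest in liver, and FHM_All_PTA_Assem.14464.C1 is lowest in hypothalamus.

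The members came from all 4 main sources of sequence. There were 56 contigs of the Paracel assembly (52.3% of members, 59.8% of well-counted contigs), 22 single sequences (20.6%, 14.7%), 16 expressed sequence tags (15.0%, 16.1%) and 13 PacBio isoforms (12.1%, 9.08%). The Paracel contigs held 75.9% of the members' summed level in telencephalon and the PacBio isoforms 14.8%. Isoform names end in a length, and the 13 ran from 640 to 3053 bases with a median of 1583, against 1468 for well-counted isoforms. Of the 13 members, 5 were under 800 bases, beside 11.1% of the well-counted isoforms. The shortest, c27161/f1p0/640, had 31, 73 and 52 counts in telencephalon, 10, 14 and 15 in hypothalamus, 4, 6 and 8 in gut and 3, 4 and 8 in liver. The longest, c11500/f2p0/3053, had 185, 90 and 80 counts in telencephalon, 57, 10 and 9 in hypothalamus, 53, 21 and 20 in gut and 14, 12 and 9 in liver. Both were low members that gut and liver shared to some degree, unlike c2017/f9p1/760.

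Between these isoforms lay 3 short ones with few reads outside the brain, which are named after their values were seen. The isoform c8281/f4p0/726 had 810, 1070 and 1039 counts in telencephalon, 50, 54 and 34 in hypothalamus, 0, 3 and 0 in gut and 0, 1 and 0 in liver. The isoform c4693/f3p0/732 had 665, 727 and 524 counts in telencephalon and 22, 12 and 9 in hypothalamus, with ratios of 32.5, 56.4 and 63.5, and 6 counts in gut and 9 in liver over the group. The isoform c17747/f5p1/747 had 559, 561 and 521 counts in telencephalon, 116, 150 and 45 in hypothalamus, 5 in gut and 2 in liver over the group. All 3 were well counted in every telencephalon library and close to 0 in gut and liver. Low counts there were not particular to short isoforms. The longer c13982/f1p0/2102 had 11 counts in gut and 6 in liver over the group, beside 4326 in telencephalon, and c7564/f1p0/1666 had 0 in both.

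Several contigs can come from 1 gene, so 107 members need not be 107 genes. The Paracel members fell into 52 assembly clusters, of which 4 held 2 members each (clusters 1961, 3337, 14718 and 15424). In cluster 15424, FHM_All_PTA_Assem.15424.C1 had 27.5, 40.7 and 48.5 CPM in telencephalon and 8.07, 9.19 and 8.15 in hypothalamus, and FHM_All_PTA_Assem.15424.C2 had 13.6, 28.9 and 34.3 against 3.03, 5.83 and 4.90. In both, replicate 1 was lowest in telencephalon, and gut and liver means were under 1 CPM. In cluster 14718, FHM_All_PTA_Assem.14718.C1 had 17.0, 21.4 and 22.1 CPM in telencephalon and 3.41, 3.32 and 6.47 in hypothalamus, with the lowest ratio of both contigs in pair 3 (3.41 and 3.69). Members of a shared cluster may come from the same gene, so they cannot be counted as separate cases.

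Most cluster mates that were not members had few counts, and the mates that were well counted differed in their ratio. Of 27 such mates 7 were well counted, in 4 clusters, and their ratio of telencephalon to hypothalamus means had a median of 1.39, against 1.0 for all well-counted contigs. In cluster 9485 the mate FHM_All_PTA_Assem.9485.C6 had means of 110 CPM in telencephalon and 33.5 CPM in hypothalamus, and FHM_All_PTA_Assem.9485.C1 had 56.7 and 59.5 CPM. The first missed the rule in pair 2, at a ratio of 2.80, and the mean of the other was not higher in telencephalon. In cluster 1472 the mate FHM_All_PTA_Assem.1472.C3 had 129 CPM in telencephalon and 132 CPM in hypothalamus, beside the member's 13.8 and 3.51 CPM. A member's ratio was thus not that of every contig of its cluster.

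In addition, 3 pairs of member clusters had consecutive numbers, which was noticed after the members were known. FHM_All_PTA_Assem.14622.C1 had 260, 298 and 334 CPM in telencephalon and 26.3, 57.6 and 52.8 in hypothalamus, and FHM_All_PTA_Assem.14623.C1 had 247, 276 and 330 against 22.5, 78.9 and 42.4. Gut and liver means were 2.21 and 2.06 CPM for the first and 0.654 and 0.493 CPM for the other. FHM_All_PTA_Assem.16355.C1 had 162, 240 and 271 CPM in telencephalon and 29.5, 33.6 and 65.7 in hypothalamus. FHM_All_PTA_Assem.16356.C1 had 291, 454 and 511 against 52.4, 123 and 106. The remaining pair was clusters 15423 and 15424. FHM_All_PTA_Assem.15423.C1 had 63.8, 111 and 117 CPM in telencephalon and 19.7, 16.5 and 22.8 in hypothalamus, and the contigs of cluster 15424 are given above. Within each of these pairs the telencephalon libraries stood in the same order, with replicate 1 lowest and replicate 3 highest. Among all members replicate 1 was lowest for 60.7% and replicate 3 highest for 35.5%. The hypothalamus order was shared by clusters 14622 and 14623 but not by 16355 and 16356, nor by 15423 and 15424. How many consecutive numbers other sets of contigs hold was not counted. Whether such neighbours belong to the same transcript cannot be read from their names.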

How the data were processed

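The labels give the tissue and replicate number by which the 12 RNA-seq libraries were grouped. The deposited values are raw read counts per contig, without normalization, and a file lists only contigs that had a read. Per the methods, the authors clipped adaptors and low-quality bases, aligned the reads with bowtie 2, discarded likely PCR duplicates and reads with more than one placement, and counted with in-house scripts. Versions of the read-processing tools are not given in the sources. Both the consensus transcriptome and zebrafish sequences are named as mapping target. Dropping reads with several placements lowers the counts of contigs that resemble each other, so levels of related contigs are uncertain.

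Here absent contigs were set to 0, and 0 columns of values lacked a mapped sample. TMM factors (edgeR 4.0.16 in R 4.3.3) over 42878 contigs, those seen in 2 or more libraries of a tissue, were 1.28 to 1.37 in telencephalon, 1.13 to 1.40 in hypothalamus, 0.917 to 0.937 in gut and 0.616 to 0.682 in liver. Each comparison was fitted on its own 6 libraries over these contigs with edgeR's quasi-likelihood test. The Benjamini-Hochberg adjustment ran over all of them, with a threshold of 0.05. DESeq2 1.42.0, other scalings and filters, the replicate block and leaving out each library served as alternatives. Floors of 3 counts cover counting error only, because PCR copies cannot be told from separate molecules without identifiers.

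The numbers come from the labels, and the methods describe individual males. Between same-numbered libraries of different tissues, deviations from the tissue mean correlated at 0.191 to 0.833 in all 18 cases (25918 contigs), so the numbers were taken to pair the libraries. The members and lists were chosen with earlier results of these data known. Contigs are named by rank in level, ratio, spread, change between gut and liver, pattern, length and cluster, at most 2 per item, and others are said to be chosen after their values were seen. Of 11230 names with a sequence identifier, 0 were found among the 64593 genes of the RefSeq table (assembly fPimPro1.hap1.1). No contig sequences were used here.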

Additional observations from a re-analysis of the deposited data

How the results depend on the processing

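The number of members changed most with the fold of the rule, and next with replicate 3 left out. A fold of 2 gave 258 contigs and a fold of 5 gave 48, while other scalings, a minimum count of 10 or 100 and a hypothalamus floor of 3 counts gave 76 to 135. Scaling by library size alone shared 103 of its 109 contigs with the members and DESeq2 size factors 99 of 103. Without the pairing (no replicate block), asking every telencephalon library to be at least 3 times every hypothalamus library, 73 remained. Leaving out a replicate number gave 146 to 182 contigs (155 without replicate 1, 146 without replicate 2 and 182 without replicate 3). Members low in both gut and liver numbered 66 to 84 over all settings.

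The calls between telencephalon and hypothalamus numbered 54, with the replicate block 86, with DESeq2 103, and 1 to 52 without a replicate. With the replicate block, the counts of calls were 24 between gut and liver, 102 between telencephalon and gut and 98 between telencephalon and liver, so no other count moved by over 1.5 times. Without a replicate, gut against liver gave 11 to 17 calls, telencephalon against gut 94 to 98 and against liver 89 to 95. For the comparisons with gut or liver, shares of all contigs called are given for the main fit alone. Between telencephalon and hypothalamus they are given for the main fit and the replicate block alone. The 3 other contigs named for the largest change between gut and liver, Singlet_14242_R, FHM_All_PTA_Assem.3337.C2 and FHM_All_PTA_Assem.3337.C3, kept direction and call under DESeq2, library size alone, the block and without each library. In the pair left out, library size alone, chosen after seeing the data, gave 69.1%, 82.5% and 61.3% of contigs at 3 or more. The causes of these changes were not tested. Where a library was left out, the tissue with 2 libraries was assumed to vary like the other. A contig at 0 in liver can be present below 0.291 to 0.302 CPM.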
